A study of Bombyx mori with 4 samples.

Results

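The comparison of prothoracic glands stimulated with prothoracicotropic hormone (PTTH) for 3 h and their unstimulated partners is 1 of the contrasts in an mRNA sequencing study of the silkworm Bombyx mori. Its members are the 8547 loci, of 14622 in the deposited table, whose level averaged at least 1 FPKM (fragments per kilobase of transcript, corrected for the depth of each library) over the 4 libraries of the study. The PTTH 3 h group was 1 library of glands kept for 3 h with 10 nM recombinant PTTH. The control 3 h group was 1 library of glands kept equally long without it. The PTTH 1 h and control 1 h groups, also 1 library each, are used beside them. All glands were dissected from larvae of a commercial racial hybrid on day 4 of the fifth instar, rested for 30 min in Grace's medium and then cultured at room temperature. The glands of a pair went 1 into each medium, so the libraries of a time share their larvae, while the 3 h and 1 h libraries are separate glands. Each RNA preparation drew on 12 to 18 larvae, and 2 preparations were pooled per library. There is thus no replicate and no test, and every difference below is a difference between pooled libraries.

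The prothoracic gland makes ecdysteroids, the steroid hormones that start moulting and metamorphosis. PTTH is a brain neuropeptide that binds the receptor tyrosine kinase Torso on the gland cells and acts through the Ras and ERK cascade, with calcium and cyclic AMP as further messengers in moths. Cytochrome P450 enzymes of the Halloween group carry out the later steps of ecdysteroid synthesis in the gland. Which loci are these genes cannot be read here, because the table pairs its identifiers with no gene names: 0 of its identifiers occur in a list of 18210 RefSeq genes of the silkworm. The labelled tissue could not be checked against marker genes for the same reason, and loci are given by scaffold and position as the table lists them, on a genome build not given in the sources used here. In whole glands, fewer cells of a type and less RNA per cell cannot be told apart.

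After 3 h the hormone-treated library differed from its control in both directions, with the larger folds mostly upward. Of 8547 loci, 243 (2.84%) were at least 2-fold higher with PTTH on the (FPKM + 1) scale, and 294 (3.44%) were at least 2-fold lower. Adding 1 shrinks the ratios of loci with low levels. The authors give a lower and an upper limit for each FPKM value. With the demand that these limits lie apart between the libraries, 205 loci (2.4%) were higher and 235 (2.75%) lower. At 4-fold or more, 68 loci (0.796%) lay above and 19 (0.222%) below their control. The median log2 ratio over all tested loci was -0.19, and 66.9% of the loci lay below 0. Centring the ratios on that median turned the balance to 354 higher and 157 lower loci, and scaling to a common upper quartile to 299 and 200, so which direction holds more loci depends on the scaling between libraries.

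**Figure D1:**
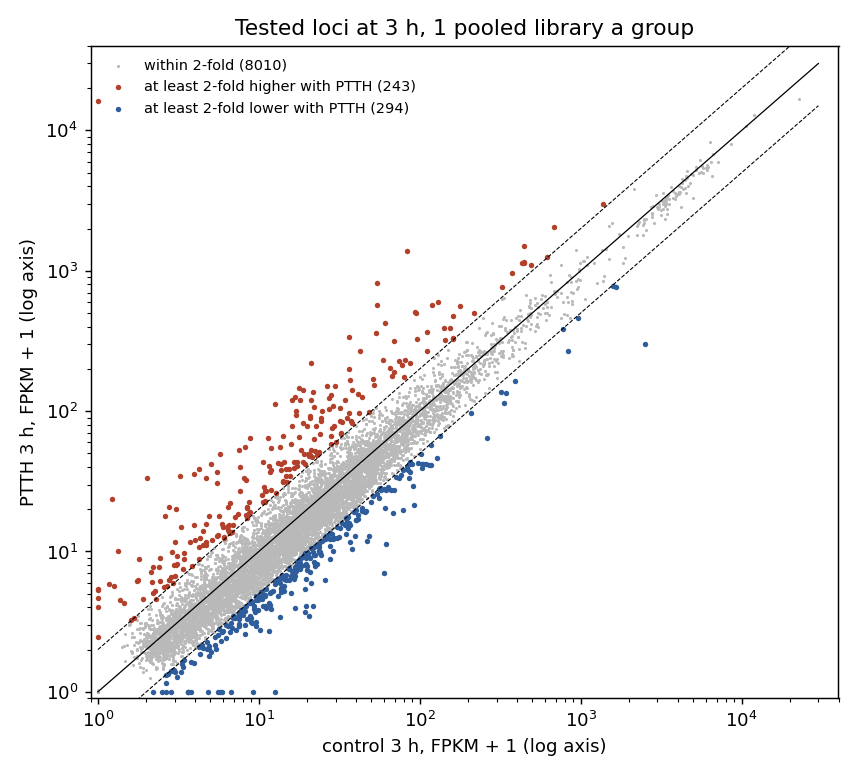
Level of each tested locus in PTTH 3 h (vertical) against control 3 h (horizontal), both as FPKM + 1 on log axes, with 1 point per locus and dashed lines at 2-fold. The 243 higher loci reach farther from the diagonal than the 294 lower ones. The point at the upper left is a locus listed at 0 in control 3 h.

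Most of the calls rest on well-sampled loci. The distance between a value and its upper limit implies a number of fragments, if that distance is 2 Poisson standard deviations. The loci implied 10294000 fragments in PTTH 3 h and 9117000 in control 3 h. The median per tested locus was 257 in PTTH 3 h and 268 in control 3 h. Higher loci with limits apart had a median of 944 implied fragments summed over both 3 h libraries, and lower ones 455. The 38 higher and 59 lower loci with overlapping limits had medians of 7.74 and 4.98. Standard errors below come from these fragments and cover counting error only.

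The spread of the ratios was wider at 3 h than at 1 h. The log2 ratios between the lower and the upper quartile ran from -0.46 to 0.10 at 3 h and from -0.19 to 0.04 at 1 h. Within 1.25-fold of the control lay 49.5% of loci at 3 h and 84.4% at 1 h. Among 744 abundant loci, averaging 100 FPKM or more over the libraries, whose median counting SE was 0.04 at either time, 58.3% lay within 1.25-fold at 3 h and 90.2% at 1 h. The 1 h and 3 h libraries came from different pools of glands, so time and pool cannot be told apart.

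By mean level over the 4 libraries, higher loci were relatively more frequent among abundant transcripts, and lower loci among those of moderate level. That mean includes both 3 h libraries, so a high value in PTTH 3 h itself lifts a locus toward a higher class. In control 3 h, higher loci had a median of 12.7 FPKM, lower loci 16.1 FPKM and all tested loci 15.5 FPKM. In control 1 h, which the call did not use, these medians were 13.2, 11.6 and 14.6 FPKM. At 100 FPKM or more in control 3 h lay 22 higher and 22 lower loci. Of the 744 abundant loci, 43 (5.78%) were higher with PTTH and 13 (1.75%) lower. In the class of 20 to 100 FPKM, 87 of 2735 loci were higher and 75 lower. From 5 to 20 FPKM the order was turned, with 71 of 3074 loci higher and 135 (4.39%) lower. In the class of 1 to 5 FPKM, 42 of 1994 were higher and 71 lower. Ratios also moved with level as a whole, with a log2 median of -0.25 from 5 to 20 FPKM and of -0.08 in the most abundant class. Centring turned the order of the directions round in the classes below 20 FPKM: from 5 to 20 FPKM 3.84% of loci were then higher and 2.41% lower, and from 1 to 5 FPKM 2.86% higher and 1.91% lower. In the class of 20 to 100 FPKM the centred shares were 4.68% higher and 1.39% lower, and in the most abundant class 6.85% and 0.941%. Higher loci were most frequent in the most abundant class, and lower loci from 5 to 20 FPKM, with and without centring. The added 1 FPKM holds down calls at low levels. A locus at 0.316 FPKM in PTTH 3 h and 1.63 FPKM in control 3 h only just counted as lower. Other pseudocounts were not applied by class, so how far the order of the classes depends on the added 1 FPKM was not tested. Centring keeps the same classes, so it cannot remove the dependence of the class on the 3 h values. The most abundant class also counts as higher a locus listed at 0 in control 3 h, described below.

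The summed difference of the higher loci, 24576 FPKM, was larger in size than that of the lower ones. The direction of the 3 h shares was set by the call, which used the same values. A downward difference cannot exceed the control level, while an upward one has no such bound. Loci called higher and above 0 in both libraries made up 4.86% of all FPKM in PTTH 3 h and 1.48% in control 3 h. The same loci held 2.73% in PTTH 1 h and 1.79% in control 1 h. Loci called lower held 0.863% of all FPKM in PTTH 3 h and 2.25% in control 3 h, and 1.36% in PTTH 1 h and 1.71% in control 1 h. The added level of the higher loci was spread over many of them, the 10 with the largest differences holding 38.4% of it. On the lower side the 10 largest held 58.1% of a summed difference of -10711 FPKM, of which XLOC_007474, described below, made up -2221 FPKM.

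The span of a locus on its scaffold, which includes introns, had a smaller median among the called loci than among all tested loci. Loci with limits apart spanned a median of 2612 bases where higher and 3882 bases where lower, and tested loci a median of 4524 bases. Higher loci with limits apart were most frequent under 1 kb, at 50 of 1209 (4.14%), less frequent from 3 to 10 kb, at 45 of 3286 (1.37%), and more frequent again from 10 to 30 kb, at 55 of 1871 (2.94%). Among the 128 loci of 30 kb or more, 0 were higher and 5 lower. With only loci of at least 20 FPKM counted, the shares of higher loci with limits apart were 6.08% under 1 kb, 2.29% from 3 to 10 kb and 5.06% from 10 to 30 kb. Short loci have fewer fragments, with a median of 129 over both 3 h libraries under 1 kb and 975 from 10 to 30 kb. How far this sets their share was not tested.

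**Figure D2:**
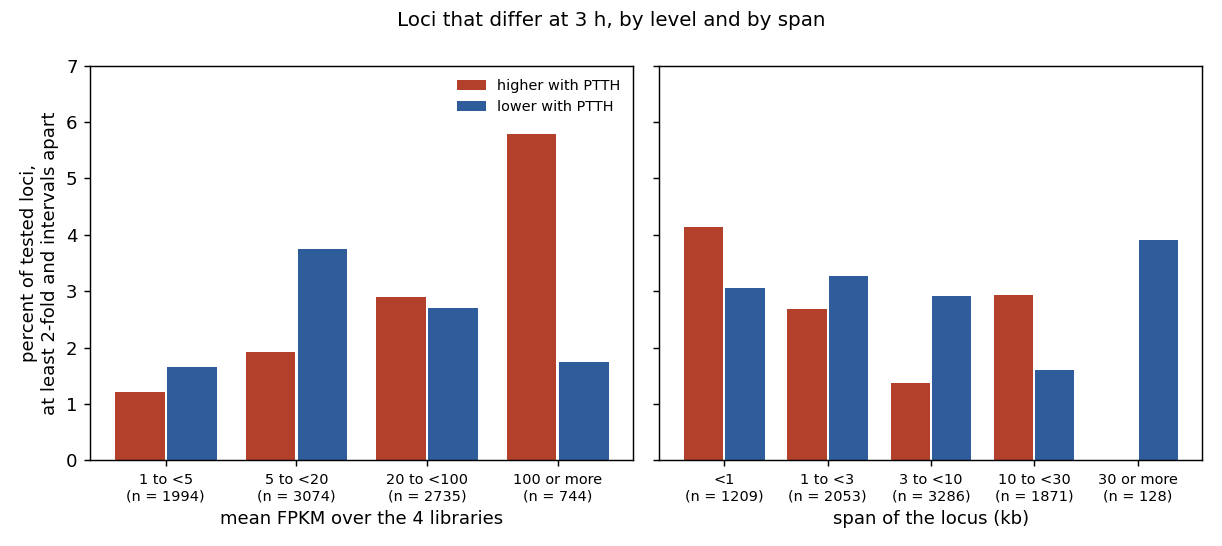
Percent of tested loci at least 2-fold higher (red) or lower (blue) with PTTH at 3 h and with the authors' limits apart, by mean FPKM over the 4 libraries (left) and by span (right). Higher loci make up 5.78% of the most abundant class, and 0 of the 128 longest loci were higher.

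The loci with the largest upward ratios were of several kinds, from barely detected in the control to strongly expressed. They were ranked by log2 ratio among loci with limits apart, values above 0 in both 3 h libraries and at least 20 implied fragments. XLOC_007718, at nscaf2888 4905668 to 4917235, led with 22.8 FPKM in PTTH 3 h and 0.228 FPKM in control 3 h. At 1 h it stood at 2.39 FPKM in PTTH 1 h and 0.339 FPKM in control 1 h. Its plain ratio was 99.99-fold at 3 h, from 9.48 implied fragments in the control. The log2 ratio was 2.94 ± 0.17 (counting SE) larger at 3 h than at 1 h. Both controls were under 1 FPKM, so this difference and its SE depend on the added 1 FPKM. With 0.1 FPKM added instead, the log2 ratio at 3 h was 6.12, and with 5 FPKM it was 2.41. XLOC_008966, at nscaf2930 1477270 to 1477996, reached 32.6 FPKM in PTTH 3 h and 1.00 FPKM in control 3 h, beside 16.8 FPKM in PTTH 1 h and 0.760 FPKM in control 1 h. Here the ratio was nearly as large at 1 h, the log2 difference between the times being 0.73 ± 0.31. The controls of XLOC_008966 were near 1 FPKM, so its difference also depends on the added 1 FPKM.

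A pair of loci was abundant with hormone and had most of its log2 ratio at 1 h already. At nscaf2943 3603651 to 3608517 the log2 ratio of 4.06 ± 0.04 at 3 h exceeded that at 1 h by 0.49 ± 0.05, and at nscaf2855 6954250 to 6954626 that of 3.91 ± 0.14 exceeded it by 0.35 ± 0.20. The first had 1382 FPKM in PTTH 3 h and 81.8 FPKM in control 3 h, the second 816 FPKM in PTTH 3 h and 53.4 FPKM in control 3 h. The next ranks had far larger ratios at 3 h than at 1 h. The locus at nscaf1071 74256 to 87000 had a log2 ratio 1.93 ± 0.18 larger at 3 h, and nscaf1681 2093311 to 2096370 one 2.23 ± 0.08 larger. The locus on nscaf1071 had 33.6 FPKM in PTTH 3 h, 2.22 in control 3 h, 6.55 in PTTH 1 h and 1.68 in control 1 h. That on nscaf1681 had 565 FPKM in PTTH 3 h, 53.3 in control 3 h, 258 in PTTH 1 h and 116 in control 1 h. On nscaf1681 control 3 h was thus also below control 1 h.

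At nscaf1898 7047601 to 7056781 the level was 218 FPKM in PTTH 3 h and 20.2 FPKM in control 3 h, after 94.3 FPKM in PTTH 1 h and 21.9 FPKM in control 1 h. The control libraries were close to each other, and both PTTH libraries stood above them. A very short locus at nscaf2838 156546 to 156780 had 337 FPKM (limits 305 to 369) in PTTH 3 h and 35.3 FPKM (25.3 to 45.4) in control 3 h, with 134 FPKM in PTTH 1 h and 49.8 FPKM in control 1 h. At nscaf3003 2253955 to 2266970 the values were 34.9 FPKM in PTTH 3 h and 2.94 FPKM in control 3 h, beside 8.73 FPKM in PTTH 1 h and 5.72 FPKM in control 1 h. At this last locus PTTH 3 h lay above and control 3 h below both 1 h libraries.

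Ranks 10 to 15 were within 1.5-fold of their controls at 1 h. The locus at nscaf2853 1131823 to 1133652 was 9.56-fold higher, with 112 FPKM (97.2 to 126) in PTTH 3 h and 11.7 FPKM (7.05 to 16.3) in control 3 h, while PTTH 1 h had 31.7 FPKM and control 1 h 36.3 FPKM. At nscaf3066 1923972 to 1924524 the 3 h values were 144 FPKM with PTTH and 16.7 FPKM without, and the 1 h values 18.6 FPKM with PTTH and 15.5 FPKM without. At nscaf3076 59354 to 59858 they were 126 FPKM in PTTH 3 h and 15.7 FPKM in control 3 h, with 38.9 FPKM in PTTH 1 h and 28.6 FPKM in control 1 h. At each of these 3 loci PTTH 3 h was the highest library by a wide margin. The remaining ranks were nscaf2888 7341245 to 7356400, part of a run described below, nscaf2883 777620 to 778947, at 141 FPKM in PTTH 3 h and 17.8 FPKM in control 3 h, and nscaf2887 1527341 to 1529161, at 19.7 FPKM in PTTH 3 h and 1.76 FPKM in control 3 h. The last was below 1 FPKM in both 1 h libraries.

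Over the 243 higher loci the control level varied widely. In control 3 h, 18 of them lay under 1 FPKM, 91 from 1 to 10 FPKM, 112 from 10 to 100 FPKM and 22 at 100 FPKM or more. In PTTH 3 h, 68 reached 100 FPKM. Of all 8547 tested loci, 99 lay under 1 FPKM in control 3 h. They were not counted in the other classes, so the split cannot be compared with theirs. Of 6 higher loci listed at 0 in control 3 h, 5 had at most 2.50 implied fragments in PTTH 3 h. The exception, at nscaf2674 615917 to 617309, had 16308 FPKM in PTTH 3 h, 0 in control 3 h, with 13889 FPKM in PTTH 1 h and 14246 FPKM in control 1 h. It was among the most abundant loci of the other libraries, so the listed 0 can be a failed estimate, and no fold is given.

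**Figure D3:**
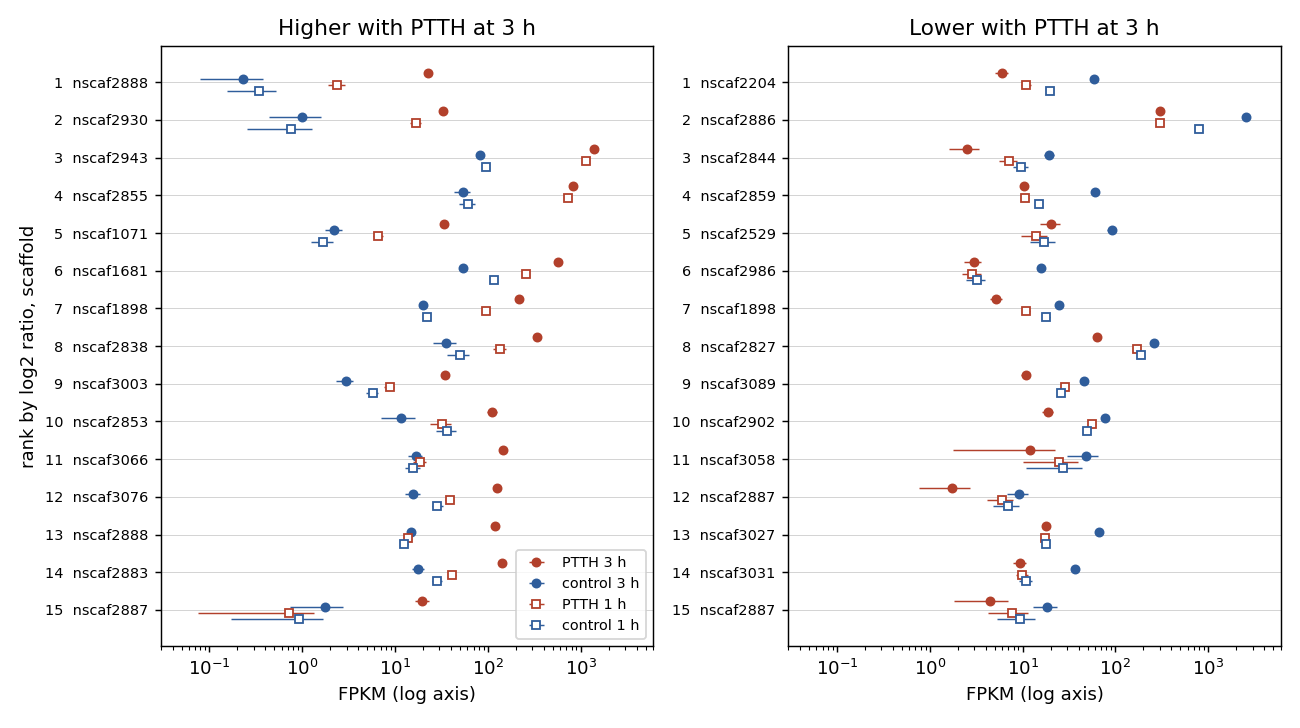
FPKM (log axis) of the 15 loci with the largest and the 15 with the smallest log2 ratio at 3 h by the ranking in the text, in PTTH 3 h (filled red), control 3 h (filled blue), PTTH 1 h (open red) and control 1 h (open blue), with the authors' limits as bars. PTTH 3 h stands apart from the 3 other libraries at most higher loci of ranks 9 to 15, and control 3 h does so at lower loci such as ranks 4, 6, 13 and 14.

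The lower loci had smaller ratios, and at several of the top ranks control 3 h was the library that stood apart. Over all 294 lower loci, the median was 5.92 FPKM in PTTH 3 h and 16.1 FPKM in control 3 h. It was 9.46 FPKM in PTTH 1 h and 11.6 FPKM in control 1 h, between the 3 h medians. XLOC_001851, at nscaf2204 1401844 to 1411620, had 6.01 FPKM in PTTH 3 h and 58.7 FPKM in control 3 h, with 10.9 FPKM in PTTH 1 h and 19.5 FPKM in control 1 h. Its log2 ratio was lower by 2.31 ± 0.15 at 3 h than at 1 h. XLOC_007474, at nscaf2886 229940 to 233028, had 302 FPKM in PTTH 3 h and 2524 FPKM in control 3 h, beside 303 FPKM in PTTH 1 h and 803 FPKM in control 1 h. Its difference of -2221 FPKM was the largest downward difference among loci with limits apart.

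The next ranks fall into 2 patterns of levels. In the first, PTTH 3 h was close to both 1 h libraries and control 3 h was above them. At nscaf2529 4343578 to 4343905 the levels were 20.4 FPKM in PTTH 3 h and 91.6 FPKM in control 3 h, with 13.9 FPKM in PTTH 1 h and 17.2 FPKM in control 1 h. The long locus at nscaf3027 3646707 to 3677240 had 17.7 FPKM (16.4 to 18.9) in PTTH 3 h and 67.2 FPKM (64.7 to 69.6) in control 3 h, with 17.3 FPKM in PTTH 1 h and 17.7 FPKM in control 1 h. At nscaf3031 2818914 to 2823229 PTTH 3 h had 9.44 FPKM and control 3 h 36.9 FPKM, with 9.91 FPKM in PTTH 1 h and 10.9 FPKM in control 1 h. At the last 2 loci the limits of PTTH 3 h, PTTH 1 h and control 1 h overlapped, and control 3 h alone lay apart.

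In the second pattern PTTH 3 h was below both 1 h libraries as well as below control 3 h. At nscaf2827 367795 to 381714 the levels were 63.1 FPKM (59.7 to 66.5) in PTTH 3 h and 260.0 FPKM (253 to 267) in control 3 h, with 171 FPKM in PTTH 1 h and 190.0 FPKM in control 1 h. At nscaf3089 219658 to 226146 PTTH 3 h had 10.9 FPKM and control 3 h 46.2 FPKM, with 28.9 FPKM in PTTH 1 h and 26.1 FPKM in control 1 h. At nscaf2902 6010843 to 6011518 PTTH 3 h had 18.9 FPKM and control 3 h 77.5 FPKM, with 55.8 FPKM in PTTH 1 h and 49.0 FPKM in control 1 h. At these 3 loci PTTH 3 h was below and control 3 h above both 1 h libraries. The locus at nscaf1898 9508700 to 9510677 had the same order, with 5.23 FPKM in PTTH 3 h and 24.7 FPKM in control 3 h.

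Weaker sampled ranks were nscaf3058 7280150 to 7280567, whose PTTH 3 h level of 12.0 FPKM had limits of 1.78 to 22.2, and a pair on nscaf2887. On that scaffold, 13915 to 14395 stood at 1.75 FPKM in PTTH 3 h and 9.13 FPKM in control 3 h, and 463264 to 464146 at 4.43 FPKM in PTTH 3 h and 18.3 FPKM in control 3 h. Each rests on under 20 implied fragments in PTTH 3 h. Over the 294 lower loci, 32 lay under 1 FPKM in PTTH 3 h, and the control 3 h level was under 10 FPKM in 101, from 10 to 100 FPKM in 171 and at 100 FPKM or more in 22. Of all tested loci, 183 lay under 1 FPKM in PTTH 3 h, and they were not counted by these control levels. Of the 294 lower loci, 15 were listed at 0 in PTTH 3 h, and 0 of the 15 had more than 2.50 implied fragments in control 3 h.

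The abundant loci ranked upward also held nscaf3075 951708 to 952998 and nscaf2655 524217 to 535643. The first of these stood at 423 FPKM in PTTH 3 h and 59.6 FPKM in control 3 h. At 1 h it had 382 FPKM in PTTH 1 h and 193 FPKM in control 1 h, so its control libraries differed more than its PTTH libraries. The second of these stood at 361 FPKM (352 to 370) in PTTH 3 h and 52.4 FPKM (49.1 to 55.8) in control 3 h, beside 99.2 FPKM in PTTH 1 h and 53.3 FPKM in control 1 h. Those ranked downward held nscaf2931 936941 to 937907, at 266 FPKM in PTTH 3 h and 838 FPKM in control 3 h, with 514 FPKM in PTTH 1 h and 771 FPKM in control 1 h. At nscaf1681 665762 to 669270 the levels were 133 FPKM in PTTH 3 h and 345 FPKM in control 3 h, with 167 FPKM in PTTH 1 h and 272 FPKM in control 1 h. These 2 loci were lower with PTTH at both times, with log2 ratios of -0.58 ± 0.07 and -0.70 ± 0.06 at 1 h. At nscaf1898 7858375 to 7865086, with 162 FPKM in PTTH 3 h and 392 FPKM in control 3 h, both 1 h libraries (158 FPKM with PTTH and 183 FPKM without) were near the PTTH 3 h level.

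Ranked by the plain difference of FPKM, an order chosen after the values were seen, other loci came to the front. The largest upward difference, among loci above 0 in all libraries, was at nscaf2847 8289571 to 8292571, with 8213 FPKM in PTTH 3 h and 6362 FPKM in control 3 h, beside 7865 FPKM in PTTH 1 h and 8193 FPKM in control 1 h. Here control 3 h was the low library. A pair on nscaf2176 was higher with PTTH. The locus at 1202422 to 1208982 had 1489 FPKM in PTTH 3 h and 443 FPKM in control 3 h, with 588 FPKM in PTTH 1 h and 395 FPKM in control 1 h. The locus at 1260890 to 1266149 had 3803 FPKM in PTTH 3 h and 2158 FPKM in control 3 h, with 2023 FPKM in PTTH 1 h and 1725 FPKM in control 1 h, and its 1.76-fold ratio did not reach 2-fold. At nscaf2828 5431044 to 5431251 the levels were 2988 FPKM in PTTH 3 h and 1375 FPKM in control 3 h, and at nscaf2674 830261 to 832933 they were 2049 FPKM (1868 to 2229) in PTTH 3 h and 685 FPKM (593 to 777) in control 3 h. That last locus stood at 1053 FPKM in PTTH 1 h and 1017 FPKM in control 1 h.

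Several of the most abundant loci were lower with PTTH by under 2-fold, with limits apart. At nscaf2937 990178 to 993339 PTTH 3 h had 4732 FPKM and control 3 h 6544 FPKM. At nscaf3072 975647 to 977719 the levels were 3303 FPKM in PTTH 3 h and 4980 FPKM in control 3 h, and at nscaf2686 19994 to 20837 they were 2829 FPKM in PTTH 3 h and 4220 FPKM in control 3 h. At these 3 loci the 1 h libraries differed little, with log2 ratios of -0.01, -0.11 and -0.07, and control 3 h was above all other libraries. The locus with the highest mean level among those tested, at nscaf2800 2702344 to 2702905, had 16646 FPKM in PTTH 3 h and 22640 FPKM in control 3 h, but only 16.5 and 28.0 implied fragments, and its limits overlapped widely.

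The 1 h libraries share no library with the 3 h comparison, so their ratio was read at the loci called at 3 h with limits apart and values above 0 in both 3 h libraries. This leaves out the abundant locus listed at 0 in control 3 h, whose 1 h ratio was -0.04. The larger the upward ratio at 3 h, the more often the locus was already higher at 1 h. Of 101 loci 2-fold to 3-fold higher at 3 h, 6 (5.94%) were at least 2-fold higher at 1 h. Of all tested loci, which were not held to the demands on limits and values, 0.983% were. Of 42 loci 3-fold to 4-fold higher, 4 (9.52%) were at least 2-fold higher at 1 h. Of 49 loci 4-fold to 8-fold higher 15 (30.6%) were, and of 12 loci at least 8-fold higher 8 (66.7%) were. The median log2 ratio at 1 h in these 4 classes was 0.16, 0.27, 0.56 and 1.37, where that of all tested loci was -0.07.

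The lower loci had little counterpart at 1 h at the 2-fold level. Of 208 loci 2-fold to 3-fold lower at 3 h, 3 (1.44%) were at least 2-fold lower at 1 h, close to the 0.959% of all tested loci. Of 18 loci 3-fold to 4-fold lower and 7 loci 4-fold to 8-fold lower, 0 were, and of the 2 loci at least 8-fold lower 1 was, XLOC_007474. Smaller differences leaned the same way: 190 of the 208 loci (91.3%) had a 1 h ratio below 0, while 67.3% of all tested loci did. With limits apart as well there were 65 (31.3%), and 878 (10.3%) of all tested loci. The median log2 ratio at 1 h was -0.24 in that class. With 1 library a group these shares carry no test.

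**Figure D4:**
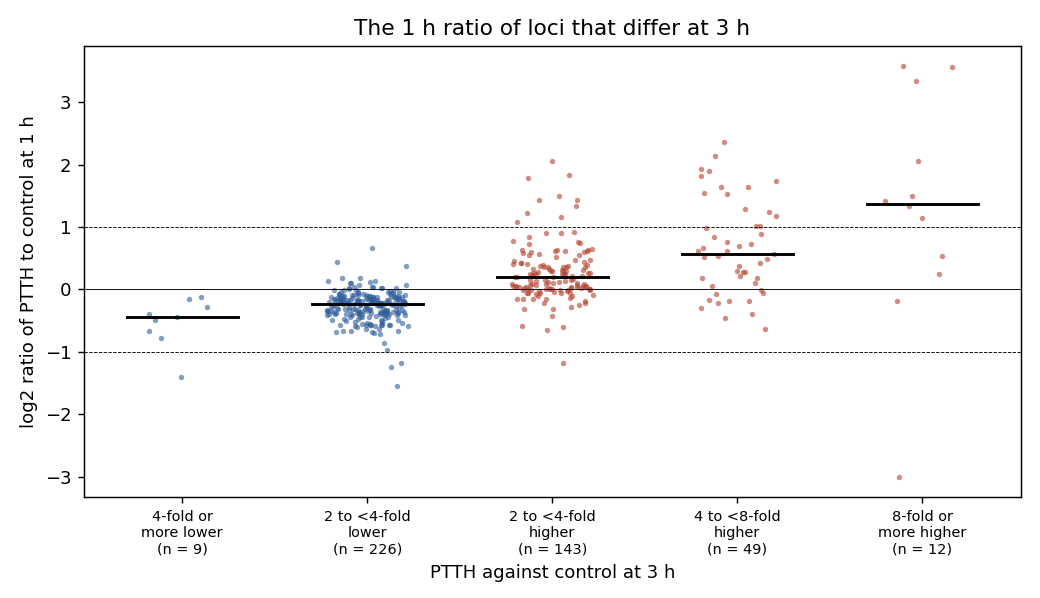
The log2 ratio of PTTH to control at 1 h (vertical) for loci that differ at 3 h with limits apart and values above 0, grouped by their fold at 3 h, with 1 point per locus, black bars at the medians and dashed lines at 2-fold. The medians climb over the upward classes to 1.37 in the 12 loci of 8-fold or more, and most lower loci lie between 0 and -1.

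The lowest point in the top upward class was nscaf2204 849306 to 849543, singled out after its values were seen. It had 48.9 FPKM (20.6 to 77.1) in PTTH 3 h from 12.0 implied fragments and 4.73 FPKM (0 to 12.5) in control 3 h. PTTH 1 h is listed at 0, and control 1 h had 6.99 FPKM (0 to 18.5), so its 1 h ratio of -2.999 ± 1.04 rests on a few fragments.

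Called loci often neighboured each other along a scaffold. Of the 243 higher loci, 66 (27.2%) lay beside another higher locus, neighbours being consecutive tested loci, while 5.22% of all tested loci lay beside a higher locus. Of the 294 lower loci, 62 (21.1%) lay beside another lower locus, against 6.34% of all tested loci. In 8193 neighbour pairs, both were higher in 38, both lower in 34 and the calls were opposite in 9. The gap in pairs of higher loci had a median of 12118 bases, and in all pairs 9123 bases. Whether some neighbours are pieces of 1 transcript was not tested.

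The longest runs held 4 consecutive loci of the same direction, and there were 2 upward and 2 downward. On nscaf2888 a run from 7332539 to 7389526 was higher. Its middle loci, 7341245 to 7356400 and 7359787 to 7380263, stood at 119.5 FPKM (116 to 123) each in PTTH 3 h and at 15.0 and 17.0 FPKM in control 3 h. In PTTH 1 h they had 13.6 and 13.01 FPKM, and in control 1 h 12.6 and 15.0 FPKM. Their levels were thus alike in each library and set apart only in PTTH 3 h. The flanking loci were 7332539 to 7334003, at 98.65 FPKM in PTTH 3 h and 23.6 FPKM in control 3 h, and 7387134 to 7389526, at 3.53 FPKM in PTTH 3 h and 0.366 FPKM in control 3 h. The first of these flanking loci was also higher at 1 h, at 74.2 FPKM in PTTH 1 h and 41.0 FPKM in control 1 h.

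The other upward run lay on nscaf1898 from 1728341 to 1760048. Its best sampled locus, 1755440 to 1760048, had 83.5 FPKM (79.4 to 87.7) in PTTH 3 h and 23.2 FPKM (20.9 to 25.5) in control 3 h, with 16.6 FPKM in PTTH 1 h and 13.9 FPKM in control 1 h. The log2 ratios of the 4 loci ran from 1.52 to 2.27 at 3 h and from -0.00 to 0.62 at 1 h. Of the 6 upward runs of 3 loci, that on nscaf2674 from 5596413 to 5640488 had log2 ratios of 2.11 to 2.26 at 3 h. Those on nscaf2838 from 156546 to 185118, nscaf2970 from 1271129 to 1353314 and nscaf3066 from 1923972 to 2017844 had wider ranges, of 2.50 to 3.22, 2.19 to 2.93 and 2.19 to 3.04.

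Of the downward runs, that on nscaf3058 from 4006228 to 4130105 began with a pair of similar level. The locus at 4006228 to 4024515 had 38.04 FPKM (36.4 to 39.7) in PTTH 3 h and 102 FPKM (98.7 to 104) in control 3 h, with 56.3 FPKM in PTTH 1 h and 59.8 FPKM in control 1 h. Its neighbour at 4028826 to 4038494 had 41.3 FPKM in PTTH 3 h and 103 FPKM in control 3 h, with 63.8 FPKM in PTTH 1 h and 64.3 FPKM in control 1 h. The limits of the 1 h libraries overlapped at both loci, with PTTH 3 h below and control 3 h above them. The run on nscaf2529 from 4343578 to 4391889 had its most abundant locus at the end, 4391316 to 4391889, at 114 FPKM (102 to 126) in PTTH 3 h and 333 FPKM (312 to 354) in control 3 h. One of its 4 loci had overlapping limits, with 0.496 and 3.496 implied fragments. Another, at 4352985 to 4353850, had a log2 ratio of -1.07. That ratio was -0.88 with centring and -0.97 with a common upper quartile, short of 2-fold. The length of this run thus depends on the scaling.

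**Figure D5:**
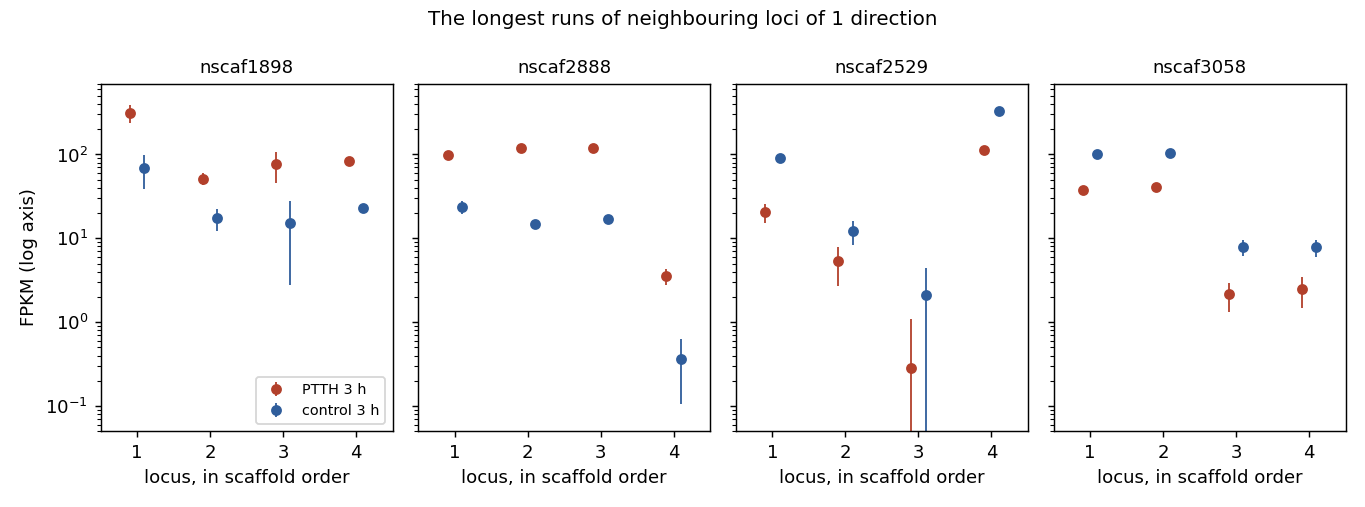
FPKM (log axis) in PTTH 3 h (red) and control 3 h (blue) of the 4 loci in each of the longest runs of neighbouring loci called in the same direction, in scaffold order, with the authors' limits as bars. On nscaf2888 the middle loci have nearly the same levels, and on nscaf2529 the limits of the third locus overlap.

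The called loci were spread over the assembly: the higher loci lay on 95 and the lower on 113 of 354 scaffolds with tested loci. The scaffolds with the most calls were mostly those with many tested loci. Over all tested loci 2.84% were higher and 3.44% lower. On nscaf1898, 9 of 293 tested loci (3.07%) were higher and 9 (3.07%) lower, near those shares. On nscaf3058, 3 of 216 (1.39%) were higher and 12 (5.56%) lower. On nscaf3031, 2 of 188 (1.06%) were higher and 12 (6.38%) lower. On nscaf2674, 9 of 194 (4.64%) were higher and 3 (1.55%) lower. With fewer tested loci, nscaf2529 had 7 of 111 (6.31%) higher and 7 (6.31%) lower.

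The remaining 6075 loci were not tested, of which 2054 were listed at 0 in all 4 libraries and 360 reached 1 FPKM in at least 1 library. The locus just outside the filter averaged 0.999 FPKM and had a log2 ratio of -0.30, and the locus just inside averaged 1.00 FPKM with -0.57. Of the tested loci, 183 lay under 1 FPKM in PTTH 3 h and 99 in control 3 h, and 18 of the higher loci and 32 of the lower loci passed the filter although the library where they were low did not reach it. At the calling threshold, loci at 323 FPKM in PTTH 3 h and 161 FPKM in control 3 h just counted as higher, and loci at 27.2 FPKM in PTTH 3 h and 13.1 FPKM in control 3 h just did not. Only 33 tested loci (0.386%) overlapped another locus of the table in position, 0 of them higher and 1 lower.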

How the data were processed

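mRNA of silkworm prothoracic glands was sequenced in 4 pooled libraries. CASAVA 1.8.0, TopHat and SAMtools are named in the submitters' processing notes without a role. The authors deposited FPKM values with lower and upper limits for 14622 loci, and the name of the deposited table gives Cuffdiff. No source used here gives the genome build, annotation, strandedness, scaling or kind of limit. Loci averaging 1 FPKM or more over the libraries were compared by the log2 ratio of (FPKM + 1), at 2-fold. Counting standard errors come from implied fragments, read from the limits as described. Among values under 20 implied fragments, 82.6% to 88.5% per library were multiples of 0.5 within 0.02. No test was made, with 1 library a group. Loci were named by a fixed rule: the 2 largest and 2 smallest log2 ratios by identifier and 13 more each way by position, among loci with limits apart, values above 0 and at least 20 implied fragments summed over both, 6 each way with a mean of at least 100 FPKM by the same demands, the longest runs of neighbours, and loci listed at 0 with 20 fragments in the other library. Loci by FPKM difference, 6 each way, and 1 locus below the fragment minimum were added after the values were seen. The comparison, rules and alternatives were chosen with earlier results of these data known. Gene lists and cell type markers could not be used, since the identifiers match no gene name. Computations used Python 3.11.15, numpy 2.4.6, pandas 2.3.3 and matplotlib 3.10.9. Alternatives were other pseudocounts, filters, scalings, thresholds, a fragment minimum and leaving out loci listed at 0.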

Additional observations from a re-analysis of the deposited data

Results flagged for a closer look

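The locus at nscaf2674 615917 to 617309 stood out because its ratio had opposite signs at the 2 times with limits apart at both. Its log2 ratio of PTTH to control was 13.9934 at 3 h and -0.0367 at 1 h. The difference between the times was not tested. The 3 h ratio comes from the 0 listed in control 3 h and depends on the added 1 FPKM, and 251009 implied fragments stood behind its value in PTTH 3 h.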

How the results depend on the processing

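The number of higher loci stayed within 1.5 times of 243, and with limits apart of 205, under every alternative but the other thresholds. Lower loci moved more. A pseudocount of 0.1 FPKM gave 503 lower loci, 383 with limits apart, and one of 5 FPKM gave 91 and 82. Centring on the median gave 157 and 122 lower loci. A common upper quartile gave 299 higher and 200 lower loci, and 154 lower with limits apart. At 1.5-fold 589 were higher and 1437 lower, or 476 and 1190 with limits apart, and at 4-fold 68 and 19, or 62 and 9. The median log2 ratio was -0.207 and -0.129 with pseudocounts of 0.1 and 5 FPKM, -0.020 without a filter, -0.084 with a common upper quartile and -0.151 with a fixed total per library, below 0 in each. Of 54 called loci among those named, 54 kept the call with a pseudocount of 0.1 FPKM and with a fixed total, 49 with one of 5 FPKM, and 53 with centring and with a common upper quartile, and 0 changed direction. Centring, applied to neighbours and levels after the values were seen, put 26.3% of higher loci beside another higher locus, against 7.58% of all tested loci, and 20.4% of lower loci beside another lower locus, against 3.45%. No paired analysis was possible because each group is 1 pooled library. For the same reason no replicate could be left out, and the counting errors do not cover variation between larvae.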
